A study of Mus musculus with 11 samples.

Results

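The genes described here encode the channel complex of hair cell mechanotransduction, in single cells of the mouse cochlear epithelium. They were taken by symbol, which gave 4 members, Tmc1, Tmc2, Tmie and Lhfpl5, of the 24898 genes with a row in any of the deposited tables. The members were read in hair cells (HCs) that were picked by other genes, separately for inner and outer hair cells (IHCs and OHCs) at embryonic day E16 and postnatal days P1 and P7. Tmc1, Tmie and Lhfpl5 were measured at all of these ages. Tmc2 was measured at P1 and P7 and was not analysed at E16.

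The sensory HCs of the organ of Corti turn sound-driven movement of their hair bundle into current. Tip links pull on channels near the tips of the shorter stereocilia, and the channels pass cations when the links are stretched. TMC1 and TMC2 are the pore-forming subunits, TMIE is a small membrane protein needed for channel function, and LHFPL5 is a membrane protein that binds the lower end of the tip link and helps to bring the subunits to it. Loss of any one of TMC1, TMIE or LHFPL5 causes deafness. In cochlear HCs, Tmc2 is known as an early postnatal partner of Tmc1.

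All groups were wildtype CD1 mice, an outbred strain, with no treatment. Each library was an independent collection of cochlear epithelium in which the animals, of either sex, had been pooled, so values could not be given per animal or per sex. There were 3 libraries at E16, 4 at P1 and 2 at P7, with 25381 cells in all, and 2 further libraries at E14 served only as an outside look. Each cell was captured with a droplet-based 3′ RNA assay in which a unique molecular identifier (UMI) marks each captured transcript.

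Library totals ran from 3828399 to 23523802 UMIs, and the median HC held 2523 to 4122 UMIs in the E16 libraries, 5338 to 9658 at P1 and 7147 to 7160 at P7. Levels are therefore given as CPM, UMI counts scaled to one fixed total in every cell, and each value is the mean of 1 cell class in 1 library, with libraries as the replicates. The p-values rest on the spread between these libraries. In the limma fits the spread of each gene was drawn toward that of all genes of like level. Because UMIs mark 3′ ends they were not divided by transcript length, and levels are compared between cells and ages but not ranked between genes. Pairs of libraries shared at most 36 cell barcodes. Among the P1 libraries, replicates 1 and 4 stood furthest from the rest, with a median absolute log2 difference from the other 3 of 0.364 and 0.403 over 3672 genes against 0.206 and 0.205 for replicates 2 and 3.

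A cell was called an HC when at least 5 of 12 HC genes had a UMI, and no member was among the 12. This gave 1909 HCs, 575 at E16, 1066 at P1 and 268 at P7. There were 52 HCs at exactly 5 genes and 149 cells just below the gate at 4. A further 22712 cells with a UMI of at most 2 of the 12 genes were taken as other cells. The 760 cells with 3 or 4 of the genes were placed in neither class, and in them Lhfpl5 stood at 128 to 351 CPM in the E16 libraries, 3.27 to 5.89 CPM at P1 and 0 at P7.

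IHCs needed a UMI of at least 2 of 8 inner genes and more inner than outer genes, which left 79 at E16, 189 at P1 and 89 at P7. OHCs needed a UMI of at least 1 of 10 outer genes and of no inner gene, which left 230 at E16 and 597 at P1 but only 8 at P7, all in replicate 5. For P7 a second gate, set after this cell count was seen, therefore took HCs with more outer than inner genes and held 164 cells, 68 and 96 in the libraries. Of 8 further genes listed for one type and not used in the gates, 6 differed widely in the direction of their labels at P7 and fewer did at the earlier ages. At P7, Nefl, Dlk2 and Xirp2, listed for IHCs, had a UMI in 82.0%, 83.1% and 76.4% of IHCs and in 18.3%, 8.54% and 16.5% of the 164 OHCs, while Aqp11, Pde6d and Lbh, listed for OHCs, had one in 23.6%, 49.4% and 13.5% of IHCs and in 95.7%, 100% and 79.9% of OHCs. Ormdl3 (97.8% and 87.8%) and Pebp1 (100% and 99.4%) were seen in most P7 cells of both types. At E16, Nefl had a UMI in 60.8% of IHCs and 15.7% of OHCs and Xirp2 in 30.4% and 6.96%, while Lbh went against its label, with 5.06% and 1.30%, as did Ormdl3, with 46.8% and 52.2%, and Pebp1, with 100% and 95.2%. Aqp11 (11.4% and 22.2%) and Pde6d (34.2% and 42.6%) differed in the direction of their labels at E16, and Dlk2 (72.2% and 70.4%) was nearly equal. At P1, Nefl (81.5% and 54.9%), Xirp2 (82.5% and 56.3%) and Lbh (2.12% and 19.1%) differed in the direction of their labels, and Dlk2 (95.8% and 93.5%), Aqp11 (21.2% and 23.6%) and Pde6d (76.7% and 79.4%) were nearly equal.

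The members lie on 4 chromosomes. In GRCm38 (mm10), Tmc1 spans chr19:20783458-20954202 on the minus strand, Tmc2 chr2:130195194-130264445 on the plus strand, Tmie chr9:110865711-110880113 on the minus strand and Lhfpl5 chr17:28575641-28585679 on the plus strand. Tmc1 overlaps the antisense gene AC102790.1 and Tmie overlaps Als2cl at its 5′ end, in each case on the opposite strand and away from the member's 3′ end, where this assay reads. No stretch of 60 bases was shared between transcripts of any 2 members, and the transcripts of Tmc1, Tmie and Lhfpl5 shared none with any other gene. Tmc2 shared 28 such stretches with 63 other genes, so its few UMIs carry that further uncertainty.

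The promoter sequences below are shown for Lhfpl5, whose UMIs were present in HCs at every age, and for Tmc1, which differed between P1 and P7. Both were taken from RefSeq (GRCm38.p6), end at the last base before the annotated transcripts, and are written 5′ to 3′ on the gene's own strand. Capitals mark CAGCTG, a form of the E-box that basic helix-loop-helix factors bind. The Tmie window lies over annotated transcripts and is not shown.

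Lhfpl5, chr17:28575469-28575640, plus strand: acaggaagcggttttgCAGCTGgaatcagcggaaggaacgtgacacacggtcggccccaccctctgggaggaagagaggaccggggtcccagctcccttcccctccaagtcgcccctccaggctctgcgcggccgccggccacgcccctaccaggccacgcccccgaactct
Tmc1, chr19:20954203-20954452, minus strand: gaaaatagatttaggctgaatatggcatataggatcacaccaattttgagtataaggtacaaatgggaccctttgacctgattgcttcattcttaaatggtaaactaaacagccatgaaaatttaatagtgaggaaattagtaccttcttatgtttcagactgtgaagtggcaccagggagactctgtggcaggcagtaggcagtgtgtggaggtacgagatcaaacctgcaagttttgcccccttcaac

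CAGCTG, which reads the same on both strands, occurred once in the Lhfpl5 sequence and once in the 250-base Tmie window, and CAGATG, searched on both strands as CAGATG and CATCTG, did not occur in either. The Tmc1 sequence held none of these motifs. Over the 250 bases before the start of 32851 genes, 13% held CAGCTG, 14.4% held CAGATG or CATCTG, and 25.5% held any of them. The 250-base windows differed in base composition, with 74.8% G or C for Tmie, 70.8% for Lhfpl5 and 41.2% for Tmc1. The end of the 250-base Lhfpl5 window lies inside the annotated transcripts, so only its first 172 bases are shown, and the shares over all genes are for the longer window.

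Nearly all UMIs of Lhfpl5 and Tmc1 were in HCs, and those of Tmie were not. HCs were 7.22% of the cells at E16, 7.59% at P1 and 7.94% at P7. They held 96.8%, 98.6% and 99.2% of the Lhfpl5 UMIs, in order of age, and 86.7%, 86.2% and 98.0% of the 15, 29 and 102 Tmc1 UMIs. Of the 17 Tmc2 UMIs at P1, 16 were in HCs. For Tmie the share in HCs was 54.8% at E16, 67.9% at P1 and 78.4% at P7.

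**Figure D1:**
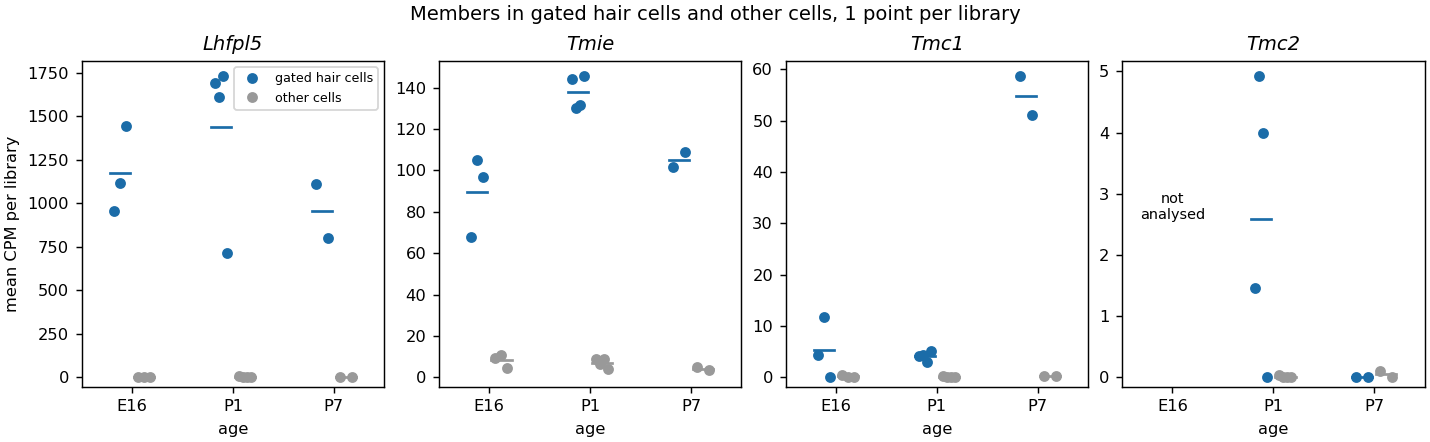
Mean CPM of each member (y axis, linear, a scale of its own per gene) at E16, P1 and P7 (x axis) in gated HCs (blue) and other cells (grey), with 1 point per library and a bar at the mean. Lhfpl5 and Tmie lay above other cells in every library, Tmc1 rose to 51.0 and 58.7 CPM at P7, and Tmc2 had UMIs in the HCs of 3 of 4 P1 libraries and of no P7 library and was not analysed at E16.

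Tmc1, the pore subunit of mature HCs, was close to the counting floor until P7. At E16 its level in HCs was 4.28, 11.6 and 0 CPM in replicates 1 to 3, on 2, 11 and 0 UMIs, where 3 UMIs in all HCs of a library would have given 6.21, 2.67 and 5.06 CPM. At P1 it was 4.17, 4.25, 2.93 and 5.16 CPM on 4 to 9 UMIs per library. At P7 it was 58.7 and 51.0 CPM on 47 and 53 UMIs, so that both P7 libraries lay above all 7 earlier ones. In other cells Tmc1 never passed 0.404 CPM in a library. The E16 value came mostly from 1 library, since replicate 2 held 11 of the 13 UMIs, in 7 cells.

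Tmc2, the other pore subunit, was seen in P1 HCs at a few UMIs per library and in no P7 HC. Its level in P1 HCs was 1.45, 4.92, 3.99 and 0 CPM, on 4, 5, 7 and 0 UMIs. At P7 none of the 268 HCs had a Tmc2 UMI, and the single UMI of that age was in another cell. This allows up to 3.36 and 2.73 CPM in the 2 libraries. P7 values under those limits would overlap the range seen at P1, so a fall of Tmc2 was not detectable at this depth. In P1 replicate 4, 445 HCs gave none, which allows up to 1.33 CPM, below the other 3 P1 libraries.

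Within HCs the balance of both pore genes was compared between P1 and P7 as the log2 ratio of Tmc1 to Tmc2, with 1 CPM added to each. The ratio was 1.07, -0.17, -0.34 and 2.62 in the P1 libraries and 5.90 and 5.70 in the P7 libraries, without overlap. The difference was 5.0 (0.80 ± 1.37, SD, n = 4 at P1 and 5.80 ± 0.14, SD, n = 2 at P7), and the exact two-sided permutation test over libraries gave p = 0.133, the smallest value that 4 against 2 libraries allow. Because Tmc2 was at 0 in P7 HCs, the added 1 CPM sets the size of the P7 ratio.

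Tmie, the small membrane subunit, was present in HCs at each age and at a low level outside them. In HCs it stood at 67.6, 105 and 96.6 CPM at E16, then at 144, 130, 131 and 146 CPM at P1 and at 101 and 109 CPM at P7. All 4 P1 libraries lay above the 5 others, which overlapped. In other cells Tmie ranged from 3.38 to 10.7 CPM. In cells carrying the marker list of pillar and Deiters' cells, the supporting cells around OHCs, it stood at 37.8, 46.6 and 14.3 CPM at E16, 15.5, 21.1, 28.9 and 11.1 CPM at P1, and 28.7 and 7.05 CPM at P7 on 5 UMIs. In cells with the marker list of Kölliker's organ, the transient epithelium medial to the HCs, it ranged from 2.93 to 8.34 CPM, and in cells with the lateral list (Hensen's, Claudius and outer sulcus cells) it did not pass 2.97 CPM. In the cells just below the HC gate it averaged 45.6 CPM at E16 on 11 UMIs, and in P7 cells with the mesenchyme list 18.5 CPM on 3 UMIs of 1 library.

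Lhfpl5, the tip-link-binding subunit, was 957, 1116 and 1443 CPM in E16 HCs, 1691, 1611, 1730 and 712 CPM at P1, and 1110 and 801 CPM at P7. In other cells it stayed between 0.470 and 5.24 CPM. The E16 and P7 libraries overlapped, and the HCs of P1 replicate 4 lay below all of them. The other 3 P1 libraries lay above all other values. In that replicate Lhfpl5 was 1.22 log2 units below the mean of the other 3, and 118 of the 3672 genes compared were lower still. In the same HCs Tmie was 0.10 log2 units above the other 3, while Tomt, which acts in placing TMC proteins in the bundle, was 228 CPM against 496, 547 and 574 CPM.

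The difference between HCs and other cells was fitted over all genes with limma, on log2 of the mean CPM plus 10 and with the library as a block. Lhfpl5 was higher in HCs by 6.65 ± 0.15 log2 units (SE) at E16, 6.86 ± 0.19 at P1 and 6.42 ± 0.19 at P7. Tmie was higher by 2.45 ± 0.20, 3.13 ± 0.12 and 3.03 ± 0.22, and Tmc1, tested only at P7 for want of counts, by 2.67 ± 0.24. In other cells Tmie and Lhfpl5 averaged under 10 CPM at each age. Tmc1 at P7, and Tmie and Lhfpl5 at each age, thus passed the filter of a mean of 10 CPM only through the HC class. Their direction was fixed by that filter. Tmie and Lhfpl5 passed the threshold, an adjusted p under 0.05, at each age, as did Tmc1 at P7, and each was higher in HCs in each library. The background was high, with 40.3% of all genes called at E16, 69% at P1 and 65.8% at P7. Cells were gated on 12 other genes of the same cells, and the P7 fit had 2 libraries. In the P7 fit the variance came wholly from genes of like level. Its p-values thus do not measure a gene's own spread between libraries.

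To compare shares of cells at equal depth, each cell was drawn down to 1500 UMIs. Lhfpl5 then had a UMI in 72.3% of HCs at E16 (95% exact interval 68.5 to 76.0%), 76.7% at P1 (74.1 to 79.2%) and 70.5% at P7 (64.7 to 75.9%), and Tmie in 10.6%, 18.9% and 12.7%. The pooled Lhfpl5 share at P1 hid a split between libraries, with 85.6%, 90.0% and 87.6% in replicates 1 to 3 and 61.8% in replicate 4, which held 445 of the 1066 HCs. By library it was 62.0 to 83.4% at E16, and 78.7% and 63.7% at P7. Tmc1 had one in 1.04% (0.384 to 2.26%), 0.563% (0.207 to 1.22%) and 7.84% (4.92 to 11.7%). Tmc2 had one in 0.563% of HCs at P1 and in 0 of 268 at P7, which allows a share of up to 1.12% by the limit of 3 counts and 1.37% by the exact interval. In Kölliker's organ cells, which should lack the complex, the shares were 0 to 0.331% for Lhfpl5, 0.445 to 0.798% for Tmie 0 to 0.0221% for Tmc1, and for Tmc2 0 at P1 and 0.0556%, or 1 cell, at P7. The HC shares stood above this background except that of Tmc2 at P7. Before cells were drawn down, Lhfpl5 had a UMI in 72.4 to 96.6% of HCs per library at E16, 91.7 to 100% at P1 and 94.5 to 98.4% at P7. The intervals cover counting error only.

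**Figure D2:**
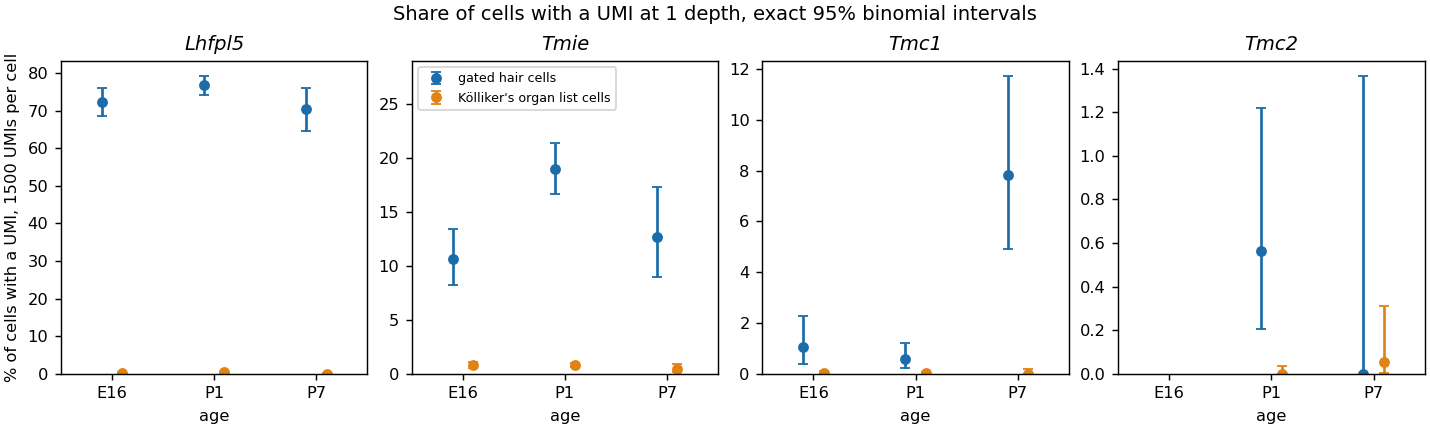
Percentage of cells with a UMI of each member after every cell was drawn down to 1500 UMIs (y axis, a scale of its own per gene), in gated HCs (blue) and cells with the Kölliker's organ list (orange) at E16, P1 and P7, with exact 95% binomial intervals over the pooled cells of an age. The HC share of Tmc1 was 7.84% at P7 against 0.563% at P1, while the pooled share of Lhfpl5 was 70.5% to 76.7%, with single libraries from 61.8% to 90.0%.

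Within single HCs the counts of the 4 members differed in how many cells they reached. The median HC held 3 Lhfpl5 UMIs at E16, 8 at P1 and 6 at P7. At P1, 576 of 1066 HCs had Tmie, 1015 had Lhfpl5 and 565 had both. Tmc1 was seen in 21, Tmc2 in 14 and both pore genes in 2. At P7, 72 of 268 HCs had Tmc1, 34 and 38 in the libraries. Of these 72 cells, 69 had Lhfpl5, 34 had Tmie and 33 had all 3. Over all 268 HCs of that age, 258 had Lhfpl5 and 117 had Tmie, which is a like share. With 1 UMI in 53 of the 72 cells, a cell without one cannot be taken as lacking the transcript. HCs without a UMI of any member were 69 at E16, 39 at P1 and 6 at P7.

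Between P1 and P7 Tmc1 rose in all gated HCs by 2.20 ± 0.30 log2 units (SE, adjusted p = 2.31e-05, limma), and both P7 libraries lay above all 4 at P1. With E16 and P1 means under 10 CPM, Tmc1 passed the filter on low values, a mean of 10 CPM, only through P7, so among the genes tested it had to be higher there. The fit adds 10 CPM, so this understates the change in CPM, from 4.13 ± 0.92 (SD, n = 4) to 54.9 ± 5.39 (SD, n = 2). Tmie differed by -0.36 ± 0.25 (adjusted p = 0.353) and Lhfpl5 by -0.52 ± 0.32 (adjusted p = 0.281). Of the 3 members tested this 1 was called, where 20.2% of all genes were. Without P1 replicate 4 the Lhfpl5 difference was -0.82 and passed the threshold (adjusted p = 0.0176).

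Between E16 and P1 none of the 3 members tested was called, where 17.6% of all genes were. The difference was -0.05 ± 0.26 for Tmc1 (adjusted p = 0.928), 0.59 ± 0.22 for Tmie (adjusted p = 0.077; 95% interval 0.12 to 1.05) and 0.23 ± 0.28 for Lhfpl5 (adjusted p = 0.626; 95% interval -0.36 to 0.81). All 4 P1 libraries lay above the highest E16 library for Tmie, and 3 of 4 did so for Lhfpl5.

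**Figure D3:**
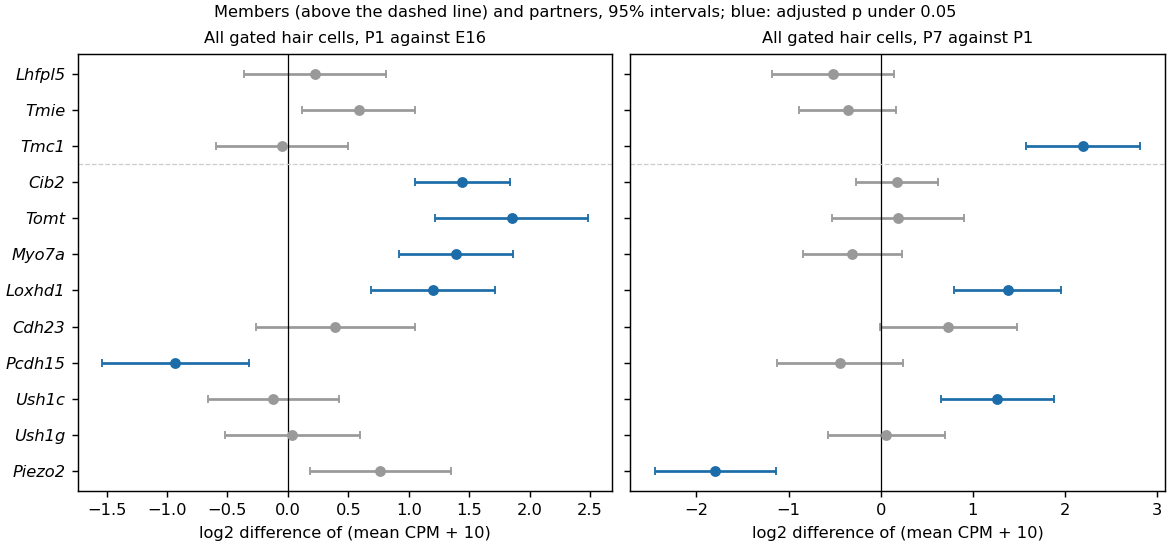
Log2 difference in mean CPM plus 10 over all gated HCs (x axis) for the members, above the dashed line, and 9 other genes of the transduction apparatus, P1 against E16 on the left and P7 against P1 on the right. Points are the limma estimates, lines their 95% intervals, and blue marks an adjusted p under 0.05. Tmc1 stood at 2.20 for P7 against P1 and at -0.05 for P1 against E16.

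The same steps were read within each HC type. In IHCs, Tmc1 was 0, 66.2 and 0 CPM at E16, with all 11 UMIs in replicate 2, then 2.1, 10.9, 9.01 and 28.0 CPM at P1 and 54.3 and 28.4 CPM at P7. The lower P7 library, at 28.4 CPM on 9 UMIs, was level with the highest P1 library, at 28.0 CPM on 4 UMIs in 2 cells. With UMIs summed over the cells before scaling, these libraries stood at 27.4 and 12.95 CPM, and E16 replicate 2 at 46.2 CPM. Tmie in IHCs was 45.7, 198 and 167 CPM, then 230, 160, 161 and 128 CPM, then 133 and 40.6 CPM. Lhfpl5 in IHCs was 932, 941 and 1192 CPM, then 2274, 1696, 1634 and 806 CPM, then 1240 and 885 CPM. Replicates 1 to 3 at P1 held the highest Lhfpl5 values of all IHC libraries and replicate 4 the lowest.

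No member was called in IHCs for P1 against E16, where 11.1% of all genes were, or for P7 against P1, where 4.29% were. For P7 against P1 the differences were 1.27 ± 0.66 for Tmc1 (adjusted p = 0.392), -1.05 ± 0.46 for Tmie (adjusted p = 0.269) and -0.52 ± 0.33 for Lhfpl5 (adjusted p = 0.518). For P1 against E16 they were 0.07 ± 0.59, 0.47 ± 0.41 and 0.56 ± 0.29. Lhfpl5 was called for P1 against E16 without P1 replicate 4, at 0.86 (adjusted p = 0.0164). A stricter gate for the types took IHCs with at least 3 inner genes and no outer gene. With it Tmc1 differed by -2.96 for P1 against E16 and passed the threshold. All E16 UMIs of Tmc1 in IHCs were in replicate 2, so that call rests on that library. For P7 against P1 the stricter gate called Tmc1 at 2.14 (adjusted p = 0.0333, limma), among 732 genes called.

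In OHCs, Tmc1 was 8.53, 0 and 0 CPM at E16 on 1 UMI, and 5.55, 3.33, 0 and 0.664 CPM at P1 on 7 UMIs. At P7 it was 64.1 and 60.3 CPM on 28 and 42 UMIs in the 164 OHCs of the second gate, far above both earlier ages. Tmie in OHCs was 70.1, 108 and 53.1 CPM, then 132, 114, 122 and 141 CPM, then 78.1 and 143 CPM. All P1 libraries lay above those of E16. Lhfpl5 in OHCs was 1073, 1297 and 1591 CPM, then 1658, 1604, 1823 and 671 CPM, then 1063 and 787 CPM.

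For OHCs at P1 against E16 no member was called, where 7.23% of all genes were, and the differences were -0.01 ± 0.59 for Tmc1, 0.70 ± 0.41 for Tmie and 0.04 ± 0.29 for Lhfpl5. For P7 against P1 the result turned on the gate. The first gate left 1 library of OHCs at P7, so that group has no spread of its own. With the 8 cells of the first gate Lhfpl5 was called, at -1.53 ± 0.41 (adjusted p = 0.00981), and Tmc1, at 2.24 ± 0.84 on 1 UMI (adjusted p = 0.0551), and Tmie, at 1.37 ± 0.59 (adjusted p = 0.0885), were not, where 23.1% of all genes were. With the 164 cells of the second gate Tmc1 was called, at 2.57 ± 0.64 (adjusted p = 0.00725), and Tmie, at -0.24 ± 0.48, and Lhfpl5, at -0.55 ± 0.32 (adjusted p = 0.329), were not, where 11.4% of all genes were. In this joint fit of types and ages Tmc1 again passed the filter of 10 CPM only through its P7 values. These include the P7 IHCs, at a mean of 41.4 CPM. The filter thus favoured a higher level at P7 without fixing it for OHCs alone.

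**Figure D4:**
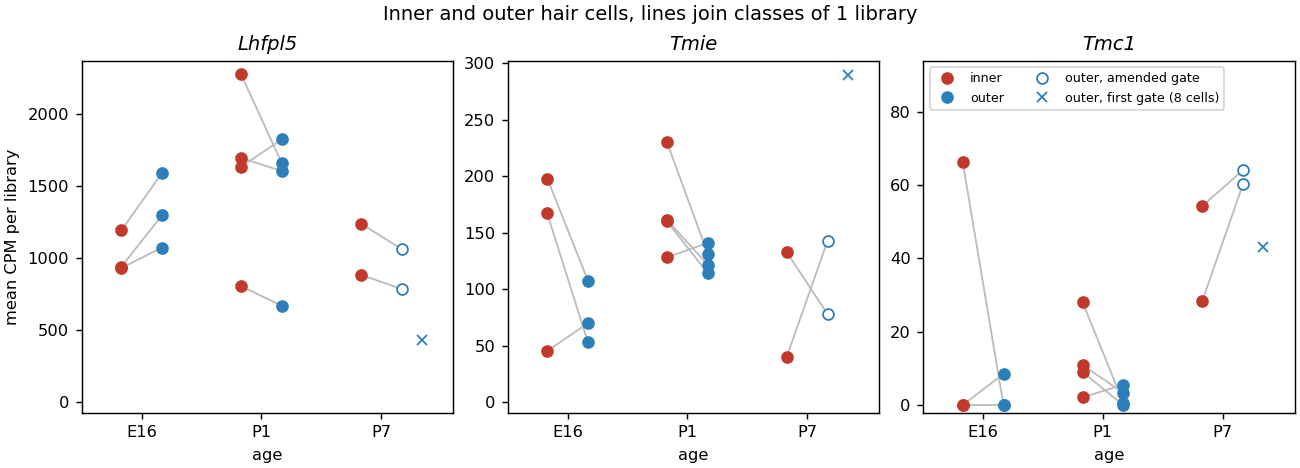
Mean CPM of Lhfpl5, Tmie and Tmc1 (y axis, linear, a scale of its own per gene) in IHCs (red) and OHCs (blue) of each library at E16, P1 and P7, with grey lines joining both types of 1 library. Open circles are the 164 P7 OHCs of the second gate and the cross the 8 of the first; for no member did IHCs and OHCs separate in all libraries at all ages.

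IHCs and OHCs of the same libraries were then compared directly, and at E16 and P1 no member was called. The background was 4.96% of all genes at E16 and 2.71% at P1. At E16 the inner minus outer difference was 0.68 ± 0.52 for Tmc1 (adjusted p = 0.479), 0.59 ± 0.36 for Tmie (adjusted p = 0.354) and -0.36 ± 0.25 for Lhfpl5 (adjusted p = 0.441). Lhfpl5 was lower in IHCs in 3 of 3 libraries there. Without E16 replicate 1, Tmie passed the threshold, higher in IHCs (adjusted p = 0.0394). Tmc1 turned on E16 replicate 2, without which its difference was -0.44 (adjusted p = 0.551, limma). With the stricter type gate the difference was 2.83 and passed the threshold, and all IHC UMIs of Tmc1 were in that replicate. At P1 the difference was 0.76 ± 0.45 for Tmc1 (adjusted p = 0.722), 0.37 ± 0.31 for Tmie (adjusted p = 0.917) and 0.16 ± 0.22 for Lhfpl5 (adjusted p = 0.99), each higher in IHCs in 3 of 4 libraries. The 95% intervals at P1 ran from -0.16 to 1.69, -0.28 to 1.01 and -0.29 to 0.61, so differences of up to these sizes were not excluded. Tmc2 at P1 was 1.54, 12.7, 6.18 and 0 CPM in IHCs on 6 UMIs and 0, 2.38, 2.58 and 0 CPM in OHCs on 4 UMIs, too few to compare.

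At P7, IHCs and the 164 OHCs of the second gate did not differ in any member by the test, where 2.61% of all genes did. The inner minus outer difference was -0.54 ± 0.62 for Tmc1 (adjusted p = 0.895; lower in IHCs in both libraries), -0.45 ± 0.46 for Tmie (adjusted p = 0.862) and 0.19 ± 0.30 for Lhfpl5 (adjusted p = 0.936; higher in IHCs in both). With the 8 OHCs of the first gate, which held 289 CPM of Tmie on 7 UMIs and 435 CPM of Lhfpl5 on 19, Tmie was called lower in IHCs, at -2.06 ± 0.57 (adjusted p = 0.0158), and Lhfpl5 higher, at 1.17 ± 0.40 (adjusted p = 0.0451), where 17.3% of all genes were called. Tmc1 was not called, at -0.21 ± 0.82 (adjusted p = 0.885). Both calls rest on 8 cells of 1 library. Among the other genes of the apparatus Pcdh15 was called on the same 8 cells, which held none of its UMIs, and with the second gate none of the 9 tested was called.

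Whether the inner and outer difference itself changed with age was tested as an interaction. No member was called between E16 and P1, where 0.297% of all genes were. Between P1 and P7 the first gate gave a call for Tmie, at -2.42 ± 0.65 (adjusted p = 0.0206), where 9.19% of all genes were called, with the 8 cells of 1 library as its whole P7 OHC group. The second gate gave none, with Tmie at -0.82 ± 0.56 (adjusted p = 0.862), Tmc1 at -1.30 ± 0.76 (adjusted p = 0.761) and Lhfpl5 at 0.03 ± 0.37 (adjusted p = 0.999), where 0.8% of all genes were called.

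Ordered by mean level, Lhfpl5 was highest in P1 IHCs (1602 ± 604 CPM, SD, n = 4), followed by P1 OHCs (1439 ± 521, n = 4), E16 OHCs (1321 ± 260, n = 3), P7 IHCs (1062 ± 251, n = 2), E16 IHCs (1022 ± 148, n = 3) and the P7 OHCs of the second gate (925 ± 195, n = 2). The ranges of neighbouring groups in this order overlapped. For Tmie the order was P1 IHCs (170 ± 42.9 CPM), E16 IHCs (137 ± 80.6), P1 OHCs (127 ± 11.6), P7 OHCs (110 ± 45.8), P7 IHCs (86.7 ± 65.3) and E16 OHCs (77.0 ± 27.9), again with overlapping ranges. For Tmc1 the P7 OHCs (62.2 ± 2.68 CPM) and P7 IHCs (41.4 ± 18.3) had the highest means. The earlier classes, E16 IHCs (22.1 ± 38.2), P1 IHCs (12.5 ± 11), E16 OHCs (2.84 ± 4.92) and P1 OHCs (2.39 ± 2.56), held mostly libraries at or under the limit of 3 UMIs and were not ordered. The P7 OHCs lay above every earlier OHC library.

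HCs of 1 library were also split by a UMI of Atoh1, the HC-inducing transcription factor, which is known to be switched off as HCs mature. Whether the split set younger from older cells was not tested. Between HCs with and without an Atoh1 UMI no member was called. At E16 Lhfpl5 differed by 0.23 ± 0.10 (adjusted p = 0.924; higher with Atoh1 in 3 of 3 libraries) and Tmie by -0.10 ± 0.30, where 0.0688% of all genes were called, 6 genes, and 455 passed at an unadjusted p under 0.05. At P1 Lhfpl5 differed by 0.06 ± 0.06 (adjusted p = 0.672) and Tmie by 0.05 ± 0.11 (adjusted p = 0.878), where 4% of all genes were called. Tmc1 was too low to enter either fit, with 2 or 3 UMIs per P1 library in HCs that had an Atoh1 UMI and 2 to 6 in those that had none. At P7 only 3 and 4 HCs per library held an Atoh1 UMI after drawing down.

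The other genes of the transduction apparatus were taken from a list of 11. Against other cells, 5 of the 6 tested at E16, 7 of 8 at P1 and 6 of 7 at P7 were higher in HCs and none was lower, with medians of 2.71, 2.84 and 3.95 log2 units, where the median of all genes was -0.01, 0.12 and 0.12 and 40.3%, 69% and 65.8% of all genes were called. Of the genes tested, only Cib2 and Ush1c, and Pcdh15 at E16, averaged at least 10 CPM in other cells. The rest passed the filter of 10 CPM only through the HC class, so their direction was fixed by it. Cib2, a calcium-binding protein that associates with TMC1 and TMC2, had an E16 mean of 1742 CPM inside the HC class and 51.1 CPM outside it. Tomt stood at 119 and 0.664 CPM, and the tip-link genes Pcdh15 and Cdh23 at 141 and 21.2 CPM and at 62.5 and 2.79 CPM.

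Across ages these genes did not follow one course. Between E16 and P1, in all gated HCs, 4 of 9 tested were higher, where 17.6% of all genes were called in either direction, Tomt by 1.85 ± 0.30, Cib2 by 1.44 ± 0.19, the tip-link motor Myo7a by 1.39 ± 0.23 and Loxhd1, a stereociliary protein tied to deafness, by 1.20 ± 0.25. The upper part of the tip link is made by Cdh23, which did not pass, and the lower part by Pcdh15, which fell by 0.93 ± 0.29 (adjusted p = 0.0322). Between P1 and P7, Loxhd1 (1.38 ± 0.28) and the tip-link anchor gene Ush1c (1.27 ± 0.29) were higher and Piezo2 fell by 1.79 ± 0.31, and the other 6 did not pass, where 20.2% of all genes were called. Piezo2 passed the filter of 10 CPM only through E16 and P1, so among the genes tested it had to be lower at P7. Cib2 was 1700 to 1804 CPM in E16 HCs, 4287 to 5256 CPM at P1, and 5308 and 5422 CPM at P7.

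Piezo2, which encodes a separate mechanically gated channel known from the apical surface of developing HCs, went the other way from Tmc1 at P7. The filter of 10 CPM set both of these directions. In all gated HCs it was 15.3, 7.95 and 14.6 CPM at E16, 14.7, 36.9, 24.9 and 41.6 CPM at P1, and 0 and 2.01 CPM at P7. At P1 it was the only one of the 9 genes called between the types, where 2.71% of all genes were called. Its inner minus outer difference was -1.90 ± 0.36 (adjusted p = 0.00198, limma), with a mean of 1.24 CPM in IHCs and 34.4 CPM in OHCs. IHCs lay under the filter of 10 CPM and OHCs above it, so the filter may have set this direction too. At E16, Tomt was the only one of the 9 called, higher in IHCs by 1.20 ± 0.33 (adjusted p = 0.0398, limma), where 4.96% of all genes were called. In the Atoh1 split at P1, 2 of the 9 tested were called, where 4% of all genes were. Cib2 (-0.17 ± 0.04) and Tomt (-0.30 ± 0.09) were lower in HCs that had an Atoh1 UMI after drawing down. Both were not followed under the alternatives, where the 356 genes called in all became 27 drawn down and 25 with no filter.

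Relatives of the members were read from a list of 11 further Tmc and Lhfpl genes, most of them too low to test. At P1, Tmc4 (23.7 CPM in HCs and 10.7 in other cells), Lhfpl2 (23.2 and 2.06) and Lhfpl4 (45.5 and 1.95) were higher in HCs and Tmc6 (2.86 and 17.8) was lower, which is 4 of 4 tested where 69% of all genes were called. Lhfpl2 and Lhfpl4 passed the filter of 10 CPM only through HCs and Tmc6 only through other cells. The direction of these genes was thus fixed by the filter. Lhfpl4 rose between E16 and P1 by 1.41 ± 0.29, and Lhfpl2 differed between P1 and P7 by -1.35 ± 0.32 and was called lower, from a mean of 23.2 to 2.46 CPM. Lhfpl2 passed the filter of that fit only through E16 and P1, which set its direction.

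Across the 17 IHC and OHC values of all libraries, the genes most like each member were found by Pearson's correlation of log2 CPM plus 10 among 9061 genes. These were Bin1 (0.865), Gramd4, Ap2a2, Frat2 and Rorb for Tmc1, 2900052L18Rik (0.860), Map7, Camsap3, Btbd1 and Fbxl5 for Tmie, and Mydgf (0.876), Rogdi, Nudt14, Haghl and Ccpg1os for Lhfpl5. The members were not among each other's nearest genes, with 0.270 between Tmc1 and Tmie, -0.47 between Tmc1 and Lhfpl5 and -0.04 between Tmie and Lhfpl5. The points share libraries and depth in pairs, and 1 of them is the class of 8 cells.

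Genes of other cell types were also present in the HC class. Summed over 8 genes, the Kölliker's organ list reached 1699 to 2135 CPM in E16 HCs, 1030 to 1491 CPM at P1 and 871 to 1253 CPM at P7, against 9703 to 12393 CPM in its own cells, and at P7 Crabp1 was at 0 in HCs. The 7-gene list of pillar and Deiters' cells was at 401 to 535 CPM in HCs at E16, 366 to 630 CPM at P1 and 716 to 820 CPM at P7, against 2669 to 7492 CPM in its own cells, with no gene at 0. The lateral list was at 27.1 to 66.6, 25.2 to 108 and 182 to 184 CPM in HCs, against 2834 to 5938 CPM in its own cells. Both lists were thus highest in HCs at P7, the age at which Tmc1 was higher. So was the mesenchyme list, at 4.07 to 15.3 CPM at E16, 3.28 to 4.31 CPM at P1 and 21.6 to 22.9 CPM at P7. With the HCs that carried genes of another type left out, Tmc1 differed between P1 and P7 by 2.19 (adjusted p = 4.41e-05, limma). That fit kept the filter of 10 CPM, and whether such cells bear on the Tmc1 difference was not tested. The blood list reached 1363 CPM in 1 E16 HC library, against at most 767 CPM in other cells, and was at most 9.31 CPM in HCs at P1 and P7. The glia list was at 92.7 to 124 CPM in E16 HCs, 105 to 190 CPM at P1 and 83.1 to 263 CPM at P7. In other cells it was at 83.3 to 103, 48.3 to 87.0 and 1115 to 3489 CPM, in order of age. The blood and glia lists had no cells of their own at E16 and P1. The part of such cells in the HC values was not tested. In cells of the Kölliker and pillar and Deiters' lists Lhfpl5 was at most 5.59 CPM and Tmc1 at most 0.780 CPM, while Tmie reached 46.6 CPM in pillar and Deiters' cells at E16, where HCs held 67.6 to 105 CPM.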

How the data were processed

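Cochlear epithelium of wildtype CD1 mice was measured by droplet 3′ single-cell RNA-seq. Per the submitters' processing notes, Cell Ranger 2.1.1 (mm10) and Seurat 2.0 were used. The authors deposited 1 table per age of natural log (ln) values, ln of 1 plus the cell's UMI share scaled to 10000, for cells within a stated range of UMIs and, per the study, genes seen in at least 10 cells, although each table also holds genes seen in 0 of its cells. UMI counts were worked back from these values, and 100% came out whole within 2%.

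Cells were classed by UMIs of listed genes as described above. The members and lists were chosen with earlier results of these data known. The gate as first written left 8 P7 OHCs, so a second P7 gate was added after the cell numbers were seen, and both are given. Class means per library with at least 5 cells were fitted with limma 3.58.1 (R 4.3.3) with a mean-variance trend on log2 of CPM plus 10, leaving out genes whose mean over the fitted values was under 10 CPM. Comparisons within libraries used the library as a block, and where types and ages were fitted together its correlation was estimated at 0.319. P-values were adjusted by Benjamini-Hochberg over all genes tested, and called means an adjusted p under 0.05. The fits were also run on simulated data with known changes. These were planted in genes at higher mean HC levels than Tmc1 and not in OHCs. The simulated runs thus say nothing of Tmc1 or of the P7 OHCs. Inner minus outer changes between ages were tested as interactions. Tmc1 to Tmc2 ratios were compared by an exact permutation test. Genes named are the 4 members, the listed partners and relatives, and the 5 genes most like each member. Replicate numbers recur between ages, but libraries with the same number did not deviate together (correlations -0.14 to 0.09), so they were not paired. Doublet calls by Scrublet (scanpy 1.11.5) marked under 0.5% of cells in both E14 libraries and in E16 replicates 1 and 2, so doublets were also sought as HCs with a UMI of at least 0.5 of the genes of another type's list, which held for 381 of 1909 HCs and, in P1 replicate 1, for 117 of 236. Leaving them out was an alternative. Alternatives were cell gates, pseudocounts, filters, normalizations, drawn-down or summed UMIs, blocks and each library left out.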

Additional observations from a re-analysis of the deposited data

Results flagged for a closer look

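In 4 groups of P1 libraries, 1 library stood beyond the 95% limit of Dixon's test for a group of 4. Chance alone would give this in about 1 in 20 groups of continuous values. The 4 were not set against the number of groups examined, so they are not read as an excess. For Tmc1 and Tmc2 the other 3 libraries were at 0, so any UMI in 1 library would have passed and the limit says nothing there. Lhfpl5 in P1 HCs was lowest in replicate 4, at 712 CPM against 1611 to 1730 CPM in the others. In other cells at P1, replicate 1 was highest for Lhfpl5, at 5.24 CPM, for Tmc1, at 0.152 CPM, and for Tmc2, at 0.0447 CPM, where the latter value is 1 UMI.

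The inner minus outer difference of Tmie changed between P1 and P7 by -2.42 log2 units in the interaction test, on the 8 P7 OHCs of the first gate. With 164 OHCs the change was -0.82 and did not pass.

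At E14, an age outside the comparisons, the gate found 22 and 26 HCs. Their Tmie level was 167 and 134 CPM, a mean of 151 CPM, against 3.12 to 4.35 CPM in the other cells of those libraries. Their Lhfpl5 level was 186 and 293 CPM, a mean of 240 CPM, against 0 to 0.163 CPM. Tmc1 in these HCs was 0 and 22.4 CPM, on 3 UMIs in 2 cells. Of the 48 HCs, 17 carried genes of another type and 11 lay at exactly 5 gate genes.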

How the results depend on the processing

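The rise of Tmc1 in all gated HCs between P1 and P7 passed the threshold under 21 of 21 alternatives, at 0.95 to 3.46 log2 units, and Tmie and Lhfpl5 were called higher in HCs than in other cells under every alternative run. Every alternative but the one without a filter kept the filter of 10 CPM, which fixed these directions in the main fits. Their agreement in direction is therefore no further evidence. With no filter 4 members were called at P1, not 2, because more genes were tested. All comparisons with P7 OHCs depended on the gate. The count of members called between IHCs and OHCs at P7, 2 with the first gate, was 0 with the amended gate, with the gate applied at all ages and with no filter, and 1 with drawn-down cells, HC gates of 4 or 7 genes, mixed cells left out, pseudocounts of 1 or 50 CPM, the strict type gate and summed UMIs. For OHCs at P7 against P1, 1 at first, it was 2 with drawn-down cells, OHCs taken as all without an inner gene, a pseudocount of 50 CPM and quantile normalization, 3 with a gate of 7 genes or mixed cells left out, and 0 with the replicate block. For the change of the inner minus outer difference between P1 and P7, 1 at first, it was 0 with a gate of 4 genes, no filter, both amended gates and summed UMIs. The strict type gate gave 1 call, Tmc1, where there were 0, for IHCs against OHCs at E16, IHCs at P1 against E16 and IHCs at P7 against P1, and the replicate block gave 1, Lhfpl5, for IHCs at P1 against E16. At E16 all Tmc1 UMIs in IHCs were in replicate 2. The causes of these changes were not tested.

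Values that changed sign were mostly near 0. For Tmc1 in OHCs at P1 against E16, first -0.01, they were 0.012 without Scrublet calls, 0.34 drawn down, 0.021 with a gate of 4 genes, 0.079 without mixed cells, 0.024 with OHCs as all without an inner gene, 0.31 with a pseudocount of 1 CPM and 0.012 with the symmetric gate. For Tmc1 in IHCs at P1 against E16, first 0.07, they were -0.68 drawn down, -0.014 without mixed cells, -0.099 with a pseudocount of 50 CPM, -0.56 with quantile normalization, -0.042 with the replicate block, -2.96 with the strict gate and -0.024 with summed UMIs. Its inner minus outer change between E16 and P1 was -1.03 drawn down, -0.092 without mixed cells, -0.089 with a pseudocount of 50 CPM, -0.29 with quantile normalization and -2.64 with the strict gate. Tmc1 between types at P7 was 0.22 with a gate of 4 genes, 0.14 with the strict gate and 0.55 with summed UMIs, its inner minus outer change between P1 and P7 was 0.011 with summed UMIs, and in all HCs at P1 against E16 it was 0.32 with a pseudocount of 1 CPM. Lhfpl5 in OHCs at P1 against E16 was -0.0082 with a gate of 7 genes and -0.088 with the strict gate, and its inner minus outer change between P1 and P7 was -0.27 with the strict gate. With the replicate block, Lhfpl5 at P7 against P1 was 0.63 in all HCs and 0.67 in IHCs. Tmie's inner minus outer change between E16 and P1 was 0.0077 with a gate of 7 genes and 0.12 with summed UMIs, its Atoh1 difference was -0.045 at P1 without mixed cells and 0.038 at E16 with summed UMIs, and in OHCs at P7 against P1 it was -0.24 with the amended and -0.26 with the symmetric gate.

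With each library left out in turn, the members called ranged from 0 to 1 for IHCs against OHCs at E16, IHCs at P1 against E16 and the inner minus outer change between P1 and P7, from 1 to 2 for the types at P7 and all HCs at P7 against P1, and from 1 to 3 for OHCs at P7 against P1. Ranges that crossed 0 were -0.32 to 0.24 for Tmc1 in all HCs, -0.42 to 1.05 in IHCs and -0.16 to 0.29 in OHCs at P1 against E16, -0.44 to 1.47 for Tmc1 between types at E16 and -0.70 to 1.21 for its change between E16 and P1, -0.10 to 0.37 for Lhfpl5 in OHCs and -0.12 to 0.83 for Tmie in IHCs at P1 against E16, -0.79 to 0.22 for Tmie's inner minus outer change between E16 and P1, and, for Atoh1, -0.27 to 0.11 for Tmie at E16, -0.011 to 0.095 at P1 and -0.0031 to 0.097 for Lhfpl5 at P1. The Tmc1 to Tmc2 difference ranged from 4.63 to 5.61 and was 3.27 with 5 CPM added and 5.12 with summed UMIs.

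Counts over all genes moved too. The 1843 genes called in all HCs at P7 against P1 became 857 with the replicate block, 935 without P7 replicate 4 and 755 without P7 replicate 5, the 1605 at P1 against E16 became 998 drawn down, 1013 without E16 replicate 1 and 1025 without E16 replicate 2, the 2103 in OHCs at P7 against P1 became 1039 with the amended gate and 327 with the block, the 1569 between types at P7 became 238 with the amended gate, and the 356 for Atoh1 at P1 became 27 drawn down and 25 with no filter. Between types, drawing down cut 451 genes at E16 to 136 and 246 at P1 to 83, and fitting each age alone gave 126 and 1020. The P7 fits with a library left out within pairs, a minimum of 10 cells for P7 OHCs and P7 fitted alone gave no value. Tmc1 before P7 and Tmc2 at P1 and P7 rest on few UMIs.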
